A study of Homo sapiens with 18 samples.

Results

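The genes described here are those whose symbol starts with SLC and a number, the naming scheme of the solute carriers, in 6 lines of HEK cells measured on arrays. Of 14884 genes with a symbol in the probe annotation used here, 37 carried such a symbol. A gene was kept if at least 3 of 18 arrays exceeded 5.6 on the log2 scale, and 25 of the 37 did, among 9686 genes tested in all. The members were thus selected on their signal level. SLC2A1-DT exceeded 5.6 on wild-type arrays alone, 3 of them, so its selection was not independent of the genotype. Of the 25 members, 20 encode transporters or their relatives, 1 encodes a transcription factor (SLC2A4RG) and 4 are non-coding RNA genes named after a neighbouring carrier gene (SLC2A1-DT, SLC9A3-OT1, SLC25A21-AS1 and SLC25A25-AS1). The name solute carrier thus holds for 20 of them. The 25 members fall into 14 numbered subfamilies. Many transporters among them were given an SLC symbol after having an older name, such as SLC33A2 (MFSD3), SLC75A1 (MFSD10, TETRAN), SLC49A4 (DIRC2) and SLC9D1 (TMCO3). Widely studied carriers such as SLC2A1, SLC7A5 and SLC25A5 were not analysed here, since no probe set carried their symbol in that annotation.

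HEK is an established line of human embryonic kidney cells. Of the lines, 3 had the genotype ATXN1L-KO (A10, A30 and B21) and 3 were wild type for ATXN1L (the CRISPR controls N4 and N8, and the parental cells). There were 3 cultures per line, each on 1 array. The labels describe CRISPR treatment, puromycin selection and isolation of single colonies, so each edited or control line stands for 1 clone. The same treatment text stands beside the parental samples. ATXN1L is a partner of the transcriptional repressor CIC, and the comparison of genotypes asks which genes differ where ATXN1L was edited.

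Solute carriers are membrane proteins that move sugars, amino acids, nucleotides, ions, metals and organic acids across the cell surface and the membranes of organelles. They work as facilitators, or couple the movement of a solute to that of another solute or ion. The SLC25 proteins sit in the inner mitochondrial membrane, the SLC35 family carries nucleotide sugars into the Golgi apparatus and the endoplasmic reticulum, and SLC66A1 exports cationic amino acids from lysosomes. Kidney tubules are rich in such carriers.

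Array medians ran from 5.09 to 5.18 (log2). With the mean of each gene over all arrays removed, 15 of 18 arrays correlated best with another array of their own line, across genes, which are not independent replicates. The 3 arrays that did not were all numbered 1. Replicate 1 of A10 correlated at 0.014 and 0.135 with the other A10 arrays but at 0.395 with replicate 1 of N4. Results for A10 are therefore also given without that array. For N4 and the parental line, the arrays numbered 1 matched each other best, at 0.415. Within their own lines they reached at most 0.371 (N4) and 0.372 (parental cells). ATXN1L itself read 7.20 to 7.61 in the knockout lines, against 7.05 to 7.29 in the wild-type lines, with a difference of 0.25 ± 0.08 between genotypes (SE; limma adjusted p = 0.468). Set singly against the wild-type lines it was called higher in A30 (0.22, adjusted p = 0.0160) and B21 (0.32, 0.00312) and not in A10 (0.20, 0.0654). Where its probes lie relative to the edit is not stated in the labels, so this probe set does not check the knockout. Of 10 embryonic kidney markers, 9 had a symbol and 8 passed the filter, among them PAX2, WT1 and SIX2. PAX8 stayed below the filter, with a highest value of 5.14. Their log2 levels summed over the 8 came to 54.81 to 55.15 in knockout lines, against 55.32 to 56.37 in wild-type lines. No marker of the 8 was called between the genotypes. Against the wild-type lines, EYA1 (−0.59) and EMX2 (−0.26) were called lower in A10, HOXD11 (−0.52) and SIX2 (−0.28) in A30, and HOXD11 (−0.31), SALL1 (−0.30) and SIX2 (−0.24) in B21. Over all genes tested, 4.56% were called lower in A10, 16.3% in A30 and 7.20% in B21. None of the 8 was called higher in these lines, and none in either direction in N4 or N8 against parental cells. Among the 3 wild-type lines, limma's F test called PAX2 (range 0.35, adjusted p = 0.0348), against 16.1% of all genes. Among the 3 knockout lines it called EYA1 (0.81, 0.0152) and HOXD11 (0.57, 0.000511), against 25.8%. The part of the kidney markers in the members' differences was not tested. No leukocyte, endothelial, keratinocyte or neural marker with a symbol passed the filter.

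The promoters of SLC25A15, SLC2A4RG and SLC9D1 are shown because these genes had some of the widest ranges over the 6 lines among the members, and because motifs linked to CIC, amino acid supply or metals can be looked for there. The windows run from 250 bases before to 50 after the gene start in RefSeq, build GRCh38.p14, plus strand: chr13:40789361-40789660 for SLC25A15, chr20:63739526-63739825 for SLC2A4RG and chr13:113490771-113491070 for SLC9D1. Capitals mark matches to TGCGCNC, the core of the metal response element. SLC9D1 had no match to any motif searched.

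SLC25A15: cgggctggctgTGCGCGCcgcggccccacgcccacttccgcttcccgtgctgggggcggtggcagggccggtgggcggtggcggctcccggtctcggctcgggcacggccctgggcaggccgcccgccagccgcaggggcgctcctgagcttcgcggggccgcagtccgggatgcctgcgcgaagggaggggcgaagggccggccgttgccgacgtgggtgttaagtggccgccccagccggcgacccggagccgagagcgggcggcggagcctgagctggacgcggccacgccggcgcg

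SLC2A4RG: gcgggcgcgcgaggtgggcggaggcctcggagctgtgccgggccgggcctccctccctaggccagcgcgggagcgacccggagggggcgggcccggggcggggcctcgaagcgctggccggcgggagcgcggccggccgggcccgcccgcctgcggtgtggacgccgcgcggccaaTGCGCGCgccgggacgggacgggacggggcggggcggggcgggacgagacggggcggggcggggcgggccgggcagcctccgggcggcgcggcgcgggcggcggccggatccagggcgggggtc

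SLC9D1: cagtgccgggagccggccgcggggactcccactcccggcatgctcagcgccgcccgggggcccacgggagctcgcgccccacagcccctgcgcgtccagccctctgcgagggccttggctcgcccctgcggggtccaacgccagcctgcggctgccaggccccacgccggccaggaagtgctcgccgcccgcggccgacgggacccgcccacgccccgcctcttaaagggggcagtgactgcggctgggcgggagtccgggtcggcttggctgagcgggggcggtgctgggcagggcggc

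The GC content of the windows was 80.0% for SLC25A15, 87.0% for SLC2A4RG and 79.0% for SLC9D1. Promoters were listed for 20 of the 25 members and searched on both strands. The CIC octamer TGAATGAA was in 0 of these 20 windows, against 1.67% of 27305 promoters, and TGAATGGA in 0, against 1.05%. The amino acid response core TGATGNAA was in 0 of 20, against 3.67% of all promoters. TGCGCNC was in 8 of 20 and in 20% of all promoters. The E-box CACGTG was in 2 of 20, in SLC60A2 and SLC61A1, and in 7.43% of all promoters. A match is a string of letters and does not show that a factor binds.

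Between the genotypes, with the line as the unit, the largest falls among the members were those of SLC33A2 and SLC25A15, and neither passed the threshold. SLC33A2 is a relative of the acetyl-CoA transporter SLC33A1. It read 6.94, 6.75 and 6.74 in A10, 6.76, 7.0 and 6.76 in A30, and 6.86, 6.93 and 6.77 in B21. In the wild-type lines it read 7.65, 7.70 and 7.80 in N4, 7.18, 7.29 and 7.32 in N8, and 7.38, 7.28 and 7.24 in parental cells. Every knockout array was below every wild-type array, and N4 was the highest line. The share of all genes tested whose arrays separate in this way was not counted. The line means averaged 6.83 ± 0.02 in knockout lines and 7.43 ± 0.25 in wild-type lines (SD, n = 3 lines each), a difference of −0.59 ± 0.12 (SE), or 1.51-fold lower in knockout lines (limma adjusted p = 0.310). Without replicate 1 of A10 it was −0.61 (0.153). The smallest two-sided p that an exact permutation test can give with 3 lines on each side is 0.1.

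SLC25A15, the mitochondrial ornithine carrier of the urea cycle, showed the same separation. It read 6.06, 6.17 and 6.29 in A10, 5.80, 5.91 and 6.01 in A30, and 6.20, 6.25 and 6.22 in B21. The wild-type arrays read 6.36, 6.40 and 6.63 in N4, 6.32, 6.70 and 6.57 in N8, and 6.44, 6.63 and 6.56 in parental cells. The groups of arrays did not overlap, the highest knockout array reading 6.29 and the lowest wild-type array 6.32, and A30 was the lowest line. The line means averaged 6.10 ± 0.17 in knockout lines and 6.51 ± 0.04 in wild-type lines (SD, n = 3 lines each), a difference of −0.41 ± 0.10 (SE; limma adjusted p = 0.332). Without replicate 1 of A10 it was −0.39 (0.265), and with each line centred on the running median of neighbouring genes it was −0.27 (0.535). SLC25A2, the second mitochondrial ornithine carrier, spanned 5.33 to 6.10 in knockout arrays and 5.39 to 5.93 in wild-type arrays, and these overlapped.

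**Figure D1:**
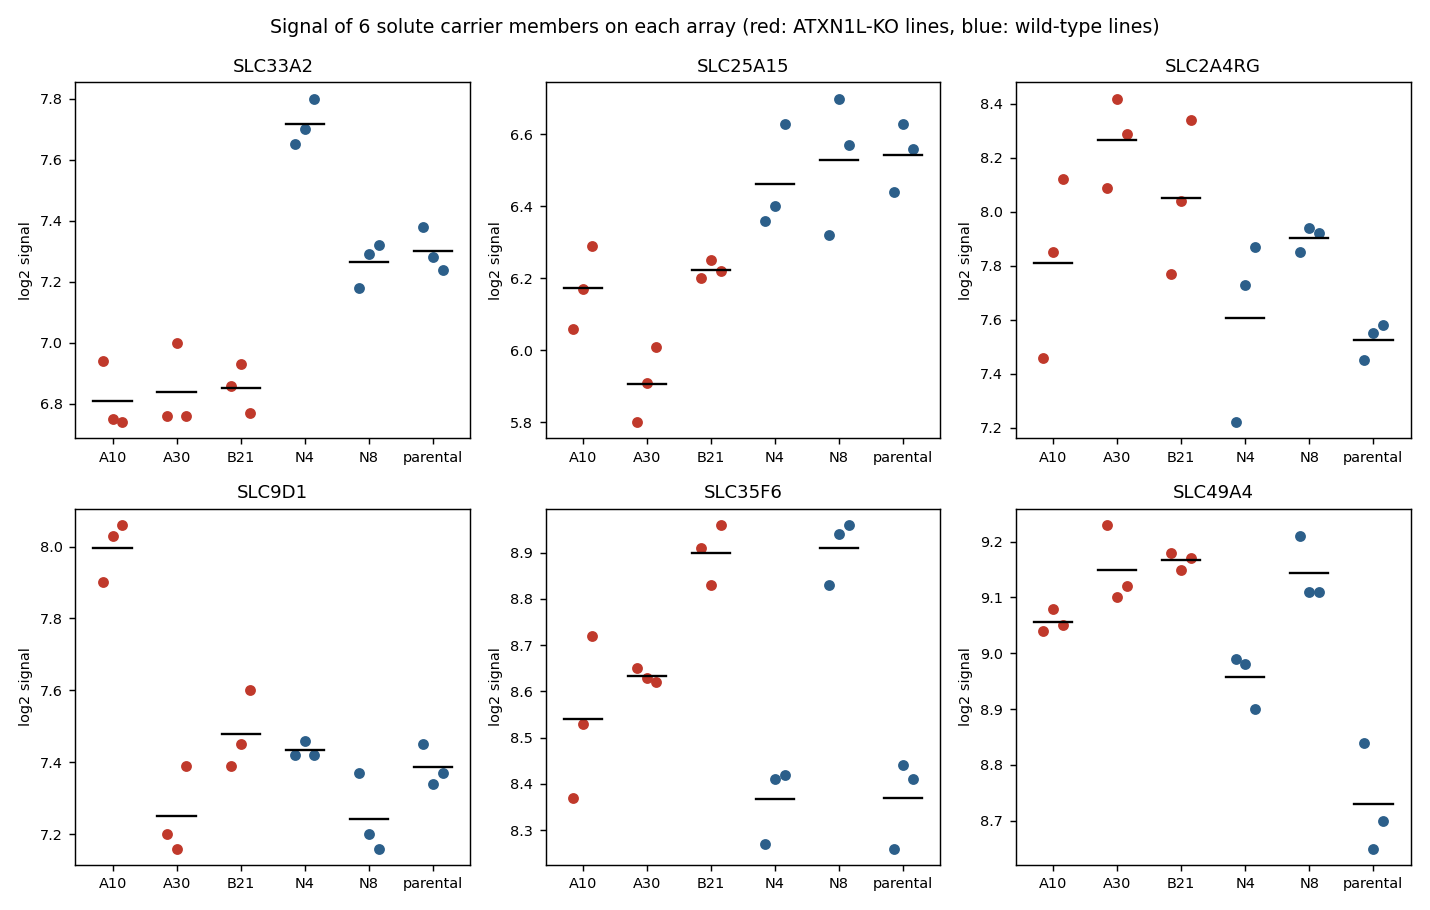
Log2 signal (y axes, each with its own range) of 6 members on each of the 18 arrays, by line (x axes). Points are arrays in replicate order, bars are line means, red marks the ATXN1L-KO lines and blue the wild-type lines. SLC33A2 and SLC25A15 were lower on every knockout array than on every wild-type array, SLC9D1 was high in A10, and SLC35F6 was as high in N8 as in B21.

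Over all 25 members, limma called 0 between the genotypes at an adjusted p under 0.05, and 0% of the 9686 genes tested were called. At an unadjusted p under 0.05 there were 4 members, against 9.67% of all genes. With arrays as units and the line as a random block, limma called 1 member, SLC33A2 (adjusted p = 0.00675), while SLC25A15 was at 0.0516. The share of all genes called under that model is not given here. The means of the 3 knockout lines all lay below those of the 3 wild-type lines for 5 members, SLC33A2, SLC25A15, SLC2A1-DT, SLC75A1 and SLC9A3-OT1, and all above for none. Over all genes 7.20% lay below and 7.35% above, 14.5% together. SLC2A1-DT passed the level filter only through wild-type arrays, so it could enter only by being high there. The median difference was −0.02 for the members and −0.00 for all genes tested, and the median size of the difference was 0.09 for both.

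The other members with small p-values between the genotypes differed by less. SLC9A3-OT1, a non-coding RNA gene overlapping the sodium-proton exchanger gene SLC9A3, spanned 7.99 to 8.36 in knockout arrays and 8.30 to 8.60 in wild-type arrays, a difference of −0.25 ± 0.09 (SE; limma adjusted p = 0.468). SLC75A1, an organic anion efflux protein, spanned 7.60 to 7.85 in knockout arrays and 7.67 to 8.25 in wild-type arrays. Both overlapped between genotypes when arrays were read singly. SLC2A4RG, a zinc finger factor that binds the promoter of the glucose transporter gene SLC2A4, read 7.46, 7.85 and 8.12 in A10, 8.09, 8.42 and 8.29 in A30, and 7.77, 8.04 and 8.34 in B21. Its wild-type arrays read 7.22, 7.73 and 7.87 in N4, 7.85, 7.94 and 7.92 in N8, and 7.45, 7.55 and 7.58 in parental cells. The A30 arrays were above every wild-type array, while A10 and B21 overlapped with N8. The difference of 0.36 ± 0.14 (SE) was the largest positive one among the members (limma adjusted p = 0.472).

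Each knockout line was then set against the mean of the 3 wild-type lines, over arrays. These 3 comparisons share the wild-type arrays, and their p-values rest on culture-to-culture spread, which does not cover differences between clones. In A10, 4 of 25 members were called, against 8.40% of all genes (3.84% higher and 4.56% lower). SLC9D1, a protein related to sodium-proton antiporters, was the 1 that rose. It read 7.90, 8.03 and 8.06 in A10, with 7.42, 7.46 and 7.42 in N4, 7.37, 7.20 and 7.16 in N8, and 7.45, 7.34 and 7.37 in parental cells. Every A10 array was above every wild-type array, by a difference of 0.64 ± 0.07 (SE; limma adjusted p = 1.71e-05). Without replicate 1 of A10 the difference was 0.69. The 3 that fell in A10 were SLC33A2 (−0.62 ± 0.07), SLC25A15 (−0.34 ± 0.08) and SLC75A1 (−0.28 ± 0.07).

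The A10 falls of SLC25A15 and SLC75A1 depended on single arrays. Without replicate 1 of A10, SLC25A15 was at −0.28 (limma adjusted p = 0.0608), SLC33A2 at −0.68 (2.59e-05) and SLC75A1 at −0.31 (0.0244). Without replicate 2 of A10 both calls were lost (limma adjusted p = 0.0721 for SLC25A15 and 0.112 for SLC75A1), which left 2 members called. SLC75A1 was also lost without replicate 3 of A10 (adjusted p = 0.130), and against the parental cells alone it was at −0.15 (0.370). With N8 left out of the wild-type lines, SLC75A1 in A10 was at −0.18 (0.164).

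In A30, 7 of 25 members were called, against 29.3% of all genes (12.9% higher and 16.3% lower). The 3 that rose were SLC2A4RG (0.59 ± 0.14), SLC49A4 (0.21 ± 0.05) and SLC66A2 (0.21 ± 0.07), and the 4 that fell were SLC25A15 (−0.61 ± 0.08), SLC33A2 (−0.59 ± 0.07), SLC9A3-OT1 (−0.30 ± 0.07) and SLC35D4 (−0.17 ± 0.06). SLC49A4 is a transporter of the lysosomal membrane and SLC66A2 a PQ-loop protein related to the lysosomal exporter SLC66A1. SLC66A2 read 7.06, 7.17 and 7.10 in A30, against 6.71 to 7.03 in the wild-type arrays, so every A30 array was above them. SLC35D4, a Golgi protein of the nucleotide-sugar carrier family, read 6.98, 6.95 and 7.11 in A30, inside the wild-type range of 6.92 to 7.44.

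Single arrays decided several of these calls. Without replicate 2 of A30, 4 members were called, and SLC66A2 (limma adjusted p = 0.142), SLC35D4 (0.174) and SLC9A3-OT1 (0.0505) were lost. Without replicate 1 of A30, SLC49A4 (0.0611), SLC66A2 (0.0604) and SLC35D4 (0.143) were lost, and SLC66A2 also without replicate 3 of A30 (0.0797). SLC66A2 was also lost without replicate 1 of N4, replicate 3 of N8 or replicate 3 of the parental cells, with adjusted p of 0.0516 to 0.0538. SLC35D4 was lost without any one of the N4 arrays, replicate 2 of N8, replicate 1 or 3 of the parental cells, or replicate 2 of B21, with adjusted p of 0.0514 to 0.0662. Against the parental cells alone neither was called, SLC66A2 at 0.24 (0.0595) and SLC35D4 at −0.14 (0.182).

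In B21, 7 of 25 members were called, against 16% of all genes (8.82% higher and 7.20% lower). SLC35F6 (0.35 ± 0.07) and SLC49A4 (0.22 ± 0.05) rose, while SLC33A2 (−0.57 ± 0.07), SLC2A1-DT (−0.42 ± 0.11), SLC9A3-OT1 (−0.31 ± 0.07), SLC25A15 (−0.29 ± 0.08) and SLC68A1 (−0.25 ± 0.07) fell. SLC2A1-DT had passed the level filter only through wild-type arrays, so its fall is a description here, and 6 of the 7 calls are of other members. SLC35F6 is a relative of the nucleotide-sugar carriers known to bind the mitochondrial adenine nucleotide translocator. It read 8.91, 8.83 and 8.96 in B21, 8.37, 8.53 and 8.72 in A10, and 8.65, 8.63 and 8.62 in A30. In the wild-type lines it read 8.27, 8.41 and 8.42 in N4, 8.83, 8.94 and 8.96 in N8, and 8.26, 8.44 and 8.41 in parental cells. The B21 arrays were above those of N4 and parental cells and in the range of N8. SLC2A1-DT, transcribed divergently from the glucose transporter gene SLC2A1, read 5.31, 5.06 and 4.93 in B21, against 5.13 to 5.72 in wild-type arrays, with overlap.

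SLC33A2, SLC35F6 and SLC49A4 were called in B21 whichever array was left out. SLC25A15 was lost without any one of the 3 B21 arrays (limma adjusted p = 0.0685 to 0.0850), SLC2A1-DT without replicate 2 or 3 of B21 (0.0720 and 0.118), SLC68A1 without replicate 1 or 2 of B21 (0.0676 and 0.0953) and SLC9A3-OT1 without replicate 1 of B21 (0.0631). Without replicate 2 of B21 the count was 4. Against the parental cells alone SLC2A1-DT was at −0.36 (0.0897).

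**Figure D2:**
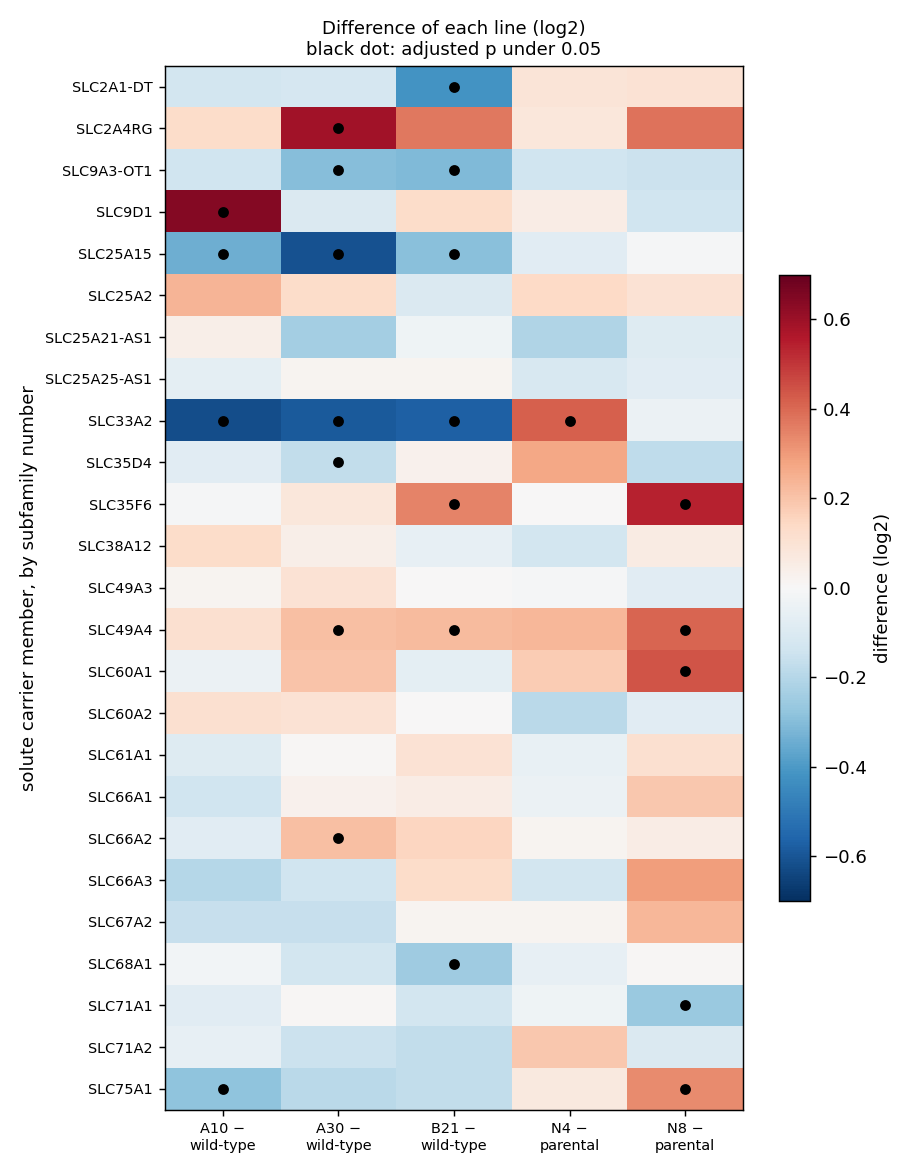
Difference in log2 signal for each of the 25 members (rows, by subfamily number) in each line (columns): A10, A30 and B21 minus the wild-type mean, then N4 and N8 minus parental cells. Red is higher, blue is lower, and a black dot marks a limma adjusted p under 0.05. SLC33A2 and SLC25A15 were low in A10, A30 and B21, and the N8 column holds 5 dots, 4 of them higher.

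The control clones were set against the parental cells to show how far lines differ without an ATXN1L edit. In N4, 1 of 25 members was called, against 0.547% of all genes (0.206% higher and 0.341% lower). This was SLC33A2, which rose by 0.42 ± 0.08 (SE; limma adjusted p = 0.0296). Without any one of the N4 or parental arrays this call was lost (limma adjusted p = 0.0516 to 0.140), so the count was then 0. Without replicate 1 of A10, which enters only the shared spread, 2 members were called. Against the parental cells alone, SLC33A2 was still lower in A10 (−0.49), A30 (−0.46) and B21 (−0.45), each with an adjusted p of 0.00207 or less.

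In N8, 5 of 25 members were called, against 14.7% of all genes (7.67% higher and 7.03% lower). With the replicate number as a block, 8 were called, and the share of all genes called with that block is not given here. SLC35F6 (0.54 ± 0.08), SLC60A1 (0.44 ± 0.12), SLC49A4 (0.41 ± 0.06) and SLC75A1 (0.33 ± 0.09) rose, and SLC71A1 fell by 0.26 ± 0.07. SLC49A4 read 9.21, 9.11 and 9.11 in N8, 8.99, 8.98 and 8.90 in N4, and 8.84, 8.65 and 8.70 in parental cells. The knockout arrays of SLC49A4 lay between 9.04 and 9.23, above N4 and parental cells and overlapping with N8. SLC60A1 belongs to the same subfamily as the sodium-dependent glucose transporter SLC60A2 known from rat kidney, and read 5.83, 5.81 and 6.21 in N8, against 5.52, 5.40 and 5.61 in parental cells, with no overlap. SLC71A1, a major facilitator protein named earlier as a hippocampus-abundant transcript, read 9.82, 9.82 and 9.74 in N8, against 10.02, 10.04 and 10.09 in parental cells.

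Of the N8 calls, SLC35F6 and SLC49A4 held whichever array was left out. Without replicate 3 of N8, SLC60A1 (limma adjusted p = 0.101) and SLC71A1 (0.0662) were lost, and without replicate 3 of the parental cells SLC75A1 (0.0974) and SLC71A1 (0.0637) were lost, which left 3 members each time. SLC60A1 was also lost without replicate 2 of the parental cells (0.0801) and SLC75A1 without replicate 1 of N8 (0.0791).

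**Figure D3:**
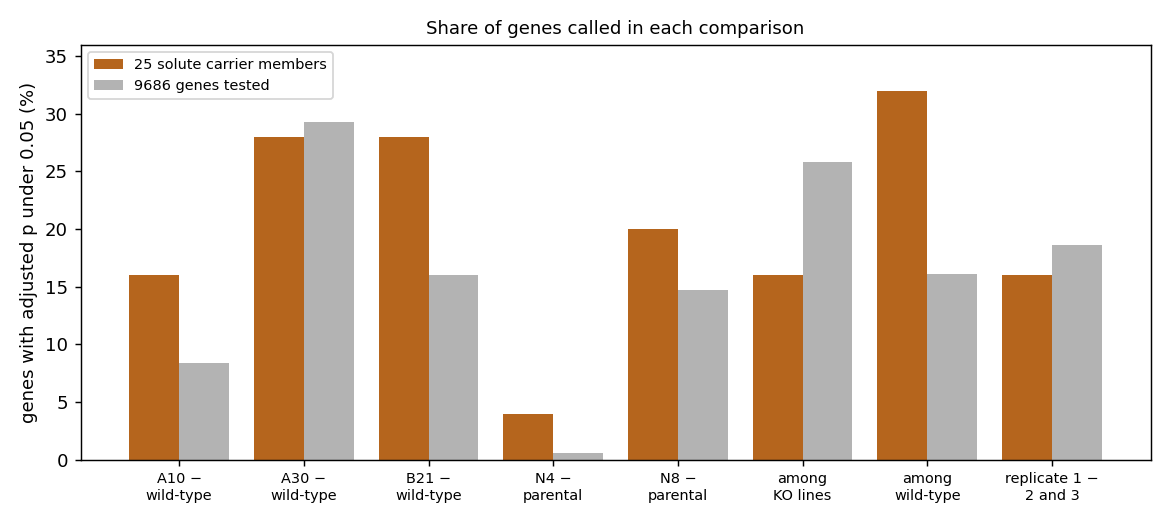
Share of genes called at a limma adjusted p under 0.05 (y axis, percent) in each comparison (x axis), for the 25 members (brown) beside all 9686 genes tested (grey). In A30 the bars stand for 7 of 25 members and 29.3% of all genes, and in B21 for 7 of 25 members and 16% of all genes.

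Lines of one genotype also differed from each other. Among the 3 knockout lines, limma's F test called 4 of 25 members, against 25.8% of all genes. These were SLC9D1, with a range of 0.75 between line means, SLC35F6 (0.36), SLC25A15 (0.32) and SLC66A2 (0.29). Without replicate 2 of N4, replicate 3 of N8, replicate 2 of A10 or replicate 1 or 2 of A30 the count was 2. Among the 3 wild-type lines 8 members were called, against 16.1% of all genes, with ranges of 0.26 to 0.54. These were SLC35F6, SLC33A2, SLC35D4, SLC60A1, SLC49A4, SLC75A1, SLC71A2 and SLC71A1. The count was 4 without replicate 3 of the parental cells and 5 without replicate 2 of the parental cells, replicate 3 of N4 or replicate 3 of N8. SLC9D1 and SLC35F6 among the knockout lines, and SLC35F6, SLC33A2, SLC35D4 and SLC49A4 among the wild-type lines, were called whichever array was left out. The others were lost without single arrays of several lines, with adjusted p of 0.0531 to 0.193 among the knockout lines and 0.0501 to 0.177 among the wild-type lines. With neighbour centring, SLC35F6 (range 0.22, adjusted p = 0.179) and SLC66A2 (0.09, 0.750) were no longer called among the knockout lines. There SLC25A15 was at 0.55 and SLC9D1 at 0.30. The count among the knockout lines was then 5, so centring also added calls of other members. Among the wild-type lines it left SLC35F6 (0.32) and SLC49A4 (0.39), with SLC33A2 at 0.29 (0.0745), SLC35D4 at 0.19 (0.190), SLC71A2 at 0.13 (0.559) and SLC71A1 at 0.12 (0.512). Over the 6 lines the range of line means had a median of 0.34 for the members and 0.33 for all genes tested, and the widest was 0.91, that of SLC33A2, against 3.30 over all genes.

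Genes next to each other on a chromosome can move together in these lines, so each member was set beside its 40 nearest tested genes, in the order of the annotation. SLC9D1 rose by 0.64 in A10, where its neighbours had a median difference of 0.24 and 36 of 40 were also higher. Among them were LAMP1 (0.52), TFDP1 (0.41) and GRTP1 (0.38), and 2 of 40 were at least as far above 0 as SLC9D1. SLC35F6 rose by 0.54 in N8, with 39 of 40 neighbours also higher and a median of 0.25. SLC25A15 fell by 0.29 in B21, where its neighbours had a median of −0.28 and 36 of 40 were also lower. In A30 SLC25A15 was at −0.61 with neighbours at −0.09, and in A10 at −0.34 with neighbours at 0.01. The part of these neighbouring shifts in the members' differences was not tested other than by centring.

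With each line centred on the running median of its neighbourhood, SLC25A15 in B21 was at 0.04 (limma adjusted p = 0.826) and SLC66A2 in A30 at −0.06 (0.600), each with the opposite sign to the uncentred value. SLC9D1 in A10 was then at 0.30 (0.0181) and SLC35F6 in N8 at 0.32 (0.0342). In A10 SLC33A2 stood at −0.44, in A30 at −0.65 and in B21 at −0.46, each with an adjusted p of 0.00153 or less. The neighbours of SLC33A2 had medians of −0.18 (A10), 0.06 (A30) and −0.10 (B21), and none of the 40 was as far below 0 in any of these lines. In N4, where 38 of 40 neighbours were also higher, SLC33A2 was at 0.24 after centring (0.386). Centring also ended the calls of SLC75A1 in A10 (−0.13, adjusted p = 0.391) and N8 (0.27, 0.0823), SLC49A4 in A30 (0.15, 0.0644), SLC2A1-DT in B21 (−0.35, 0.0536) and SLC71A1 in N8 (−0.07, 0.633). It left 6 members called in A30 and 6 in B21, in each with a member that was not called uncentred. The share of all genes called after centring is not given here.

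**Figure D4:**
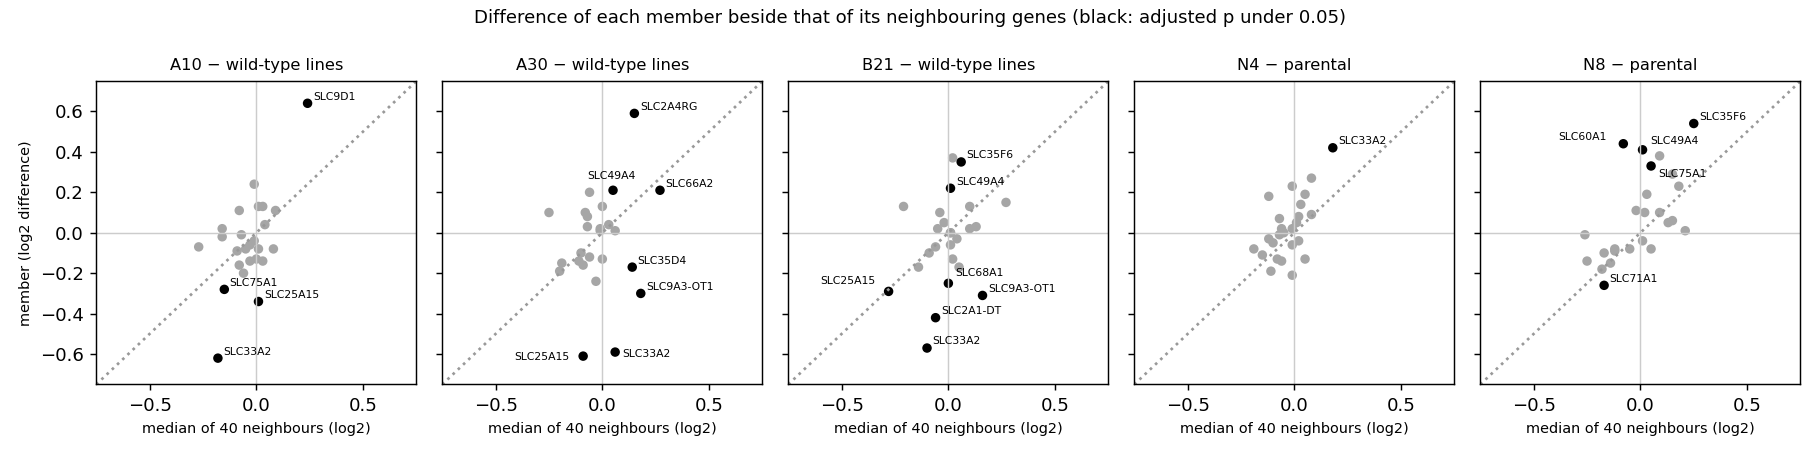
Difference in log2 signal of each member (y axes) beside the median difference of its 40 nearest tested genes (x axes), one panel for A10, A30 and B21 each, minus the wild-type mean, and one for N4 and N8 each, minus parental cells. Black points have a limma adjusted p under 0.05, and on the dotted line a member differs as much as its neighbours. SLC33A2 lay far below the line in A10, A30 and B21, whereas SLC25A15 in B21 lay on it.

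Cultures numbered 1 were also set against those numbered 2 and 3, with a term for each line. Of 25 members, 4 were called, against 18.6% of all genes (8.56% higher and 10% lower). SLC60A2 (0.19 ± 0.04) and SLC25A21-AS1 (0.20 ± 0.05) were higher in replicate 1, and SLC2A4RG (−0.33 ± 0.07) and SLC25A15 (−0.16 ± 0.04) lower. SLC2A4RG and SLC25A15 are also among the members that differed most between lines. On replicates 2 and 3 alone, SLC25A15 was at −0.62 in A30 and at −0.35 both in A10 and in B21, and SLC2A4RG was at 0.59 in A30, each with a limma adjusted p of 0.0121 or less. SLC66A2 (0.107) and SLC35D4 (0.0865) in A30 and SLC75A1 in N8 (0.0661) were not called on those replicates. SLC25A15 in replicate 1 was lost without replicate 1 of N8 (adjusted p = 0.0729).

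By subfamily, 8 of the 14 had more than 1 member and 6 had more than 1 transporter gene, too few for any subfamily to be set against the rest. Within SLC25 the ornithine carrier SLC25A15 was called in A10, A30 and B21, while SLC25A2, SLC25A21-AS1 and SLC25A25-AS1 were called in none of these. The 3 members of SLC66, PQ-loop proteins, differed in A10 by a median of −0.14 and in N8 by a median of 0.19, and the only call among them against wild-type or parental cells was SLC66A2 in A30. In SLC35, SLC35D4 was called lower in A30, and SLC35F6 higher in B21 and N8. SLC71A1 and SLC71A2, close relatives, had differences of −0.26 and −0.10 in N8.

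The members called in none of the 5 single-line comparisons overlapped between the genotypes. SLC66A1, the lysosomal exporter of cationic amino acids, spanned 6.60 to 7.0 in knockout arrays and 6.71 to 7.04 in wild-type arrays. SLC66A3 spanned 6.16 to 6.74 in knockout arrays and 6.31 to 6.98 in wild-type arrays, and N8 was its highest line at 6.81 ± 0.15 (SD, n = 3), with A10 the lowest at 6.37 ± 0.25. Its difference of 0.29 ± 0.12 between N8 and the parental cells did not pass in the fit without the replicate block (limma adjusted p = 0.116). SLC67A2 likewise had its highest line mean in N8, 6.98 ± 0.03, against 6.75 ± 0.08 in parental cells (SD, n = 3 each; limma adjusted p = 0.106 without the block). The sodium-dependent glucose transporter SLC60A2 spanned 8.56 to 8.91 in knockout arrays and 8.46 to 8.90 in wild-type arrays. SLC61A1, a molybdate transporter, spanned 6.08 to 6.51 in knockout arrays and 5.92 to 6.38 in wild-type arrays. SLC38A12 and SLC49A3 had line means within 0.24 and 0.15 of each other over the 6 lines. SLC71A2 was highest in N4, at 10.44, 10.53 and 10.59, against 10.32, 10.32 and 10.34 in parental cells, without overlap, and its difference between these lines was not called.

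Of 33 partner and pathway genes that are not solute carriers, 26 had a symbol and 23 passed the filter. None was called between the genotypes or in A10 or N4. In A30, ASNS, the asparagine synthetase of the amino acid response, rose by 0.39, GLUL, glutamine synthetase, by 0.29 and TRIB3 by 0.26, while MT2A, a metallothionein, fell by 0.42, against 12.9% of all genes called higher and 16.3% lower. In B21, ASNS rose by 0.52 and PSAT1, an enzyme of serine synthesis, by 0.37, where 8.82% of all genes were called higher. In N8, against the parental cells, 2 genes rose, HK1 (0.41) and TRIB3 (0.30), and 6 fell, among them PSAT1 (−0.59), ASNS (−0.44) and GLUL (−0.38), against 7.67% of all genes called higher and 7.03% lower. In replicate 1, 10 of the 23 were lower and 2 higher, TXNIP (0.63) and ARRDC4 (0.34), against 10% of all genes called lower and 8.56% higher. Of 14 CIC target genes, 11 had a symbol and 10 passed the filter. Of these 10, 1 was called higher in A10 (3.84% of all genes), 7 were in A30 (12.9%), 6 were in B21 (8.82%), and none in N4 (0.206%) or N8 (7.67%). In replicate 1, 8 of the 10 were called lower, with a median difference of −0.34 over the list. Of ABC transporters 1 gene passed the filter and of SLCO genes none, too few to set beside the members.

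Members near the level filter were read with its threshold in mind. Just inside it were SLC2A1-DT, above 5.6 on 3 arrays (all wild type), SLC25A25-AS1 on 6, SLC25A2 on 7, SLC60A1 on 14 and SLC25A21-AS1 on 17, while 20 members were above it on all 18 arrays. Just outside were SLC51A, above 5.6 on 1 array with a highest value of 5.65, SLC25A5-AS1 (5.28), SLC51B (4.98), SLC26A4-AS1 (4.81) and SLC20A1-DT (4.38). SLC51A and SLC51B together form a bile acid and steroid transporter of gut and kidney. The 12 SLC symbols below the filter held 10 non-coding RNA genes or pseudogenes.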

How the data were processed

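RNA from 6 HEK lines was hybridised to 18 Affymetrix arrays, 3 cultures per line. The authors deposited log2 values, 1 per probe set and array, made with Affymetrix Expression Console per the submitters' processing notes, which name no version or settings. The log2 scale was read from the values (0.57 to 14.84). They were used as deposited, with a pseudocount of 0. Precision is limited by the number of arrays. Of 53617 probe sets, 16098 had 1 symbol, 0 several and 37519 none; unnamed probe sets were not used. Per gene the probe set with the highest mean was kept, and no member had several. At least 3 arrays had to exceed 5.6.

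Differences were tested two-sided with limma 3.58.1 in R 4.3.3 over all 9686 genes, with Benjamini-Hochberg adjustment, and a gene was called at an adjusted p under 0.05. Genotypes were compared on 6 line means. Lines, and replicate 1 against replicates 2 and 3, were compared on arrays, with the labels' 3 cultures per line as replicates. Errors of differences are limma standard errors. Figures and tables were made with Python 3.11.15, pandas 2.3.3, numpy 2.4.6 and matplotlib 3.10.9. The fits were tested on simulated data. Alternatives covered the filter, normalisation, thresholds, variance model, reference lines, line and replicate blocks, neighbour centring and leaving out each array.

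The members, gene lists and tests were chosen with earlier results of these data known. Genes named are the 8 members with the smallest genotype p in each direction, up to 6 rises and falls called in each line, the 12 widest ranges over lines, 5 rises and falls in replicate 1, 5 genes on each side of the filter, and list members called; SLC38A12, SLC49A3, SLC61A1, SLC66A1 and SLC67A2 were also named as uncalled. Deviations from line means correlated above 0.1 for 15 of 15 pairs of replicate 1 arrays, 14 of 15 of replicate 2 and 9 of 15 of replicate 3, 38 of 45 in all. Every correlation exceeded 0.1 for N8 with the parental cells (3 of 3) and for B21 with the wild-type lines (9 of 9). For N4 it was 2 of 3, for A10 8 of 9 and for A30 5 of 9. Arrays of different numbers were not correlated with each other, and a shift of replicate 1 shared by the lines also raises these correlations. The check therefore cannot show that the numbers pair samples, and the labels do not state it. Counts are without the replicate block unless stated.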

Additional observations from a re-analysis of the deposited data

Results flagged for a closer look

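For the 3 members flagged here, lines of one genotype lay on opposite sides of their comparison, and limma's F test over those lines called the difference. That test asks whether the lines differ, not on which sides they lie. The same pattern was seen for SLC9D1 (A10 0.64, A30 −0.10), SLC35F6 (B21 0.35, A10 −0.01) and SLC33A2 (N4 0.42, N8 −0.04), which were not flagged. The share of all genes tested with this pattern was not counted. Of the 3 flagged members set singly, only SLC66A2 in A30 was called (limma adjusted p = 0.0346). SLC66A2 was not called in A10 (−0.08, 0.583) or B21 (0.15, 0.191). SLC35D4 was not called in N4 (0.27, 0.0997) or N8 (−0.18, 0.103), nor SLC71A2 in N4 (0.19, 0.294) or N8 (−0.10, 0.418). SLC66A2 differed among the knockout lines by a range of 0.29 (adjusted p = 0.0452), with A30 and B21 above and A10 below the wild-type mean. SLC35D4 differed among the wild-type lines by 0.45 (adjusted p = 0.00137), with N4 above and N8 below the parental cells. SLC71A2, a major facilitator protein, differed among them by 0.29 (adjusted p = 0.0359), again with N4 above and N8 below the parental cells. The SLC66A2 call was lost without any one of the A10 or A30 arrays, among others (adjusted p = 0.0605 to 0.152 for those), and SLC71A2 without any one of the parental arrays (0.0501 to 0.0531), replicate 2 or 3 of N4 (0.0997 and 0.134) or replicate 1 or 3 of N8 (0.0854 and 0.0661). SLC35D4 was called whichever array was left out. With each line centred on the running median of neighbouring genes, none of the 3 was called: SLC66A2 had a range of 0.09 (adjusted p = 0.750), SLC35D4 of 0.19 (0.190) and SLC71A2 of 0.13 (0.559). SLC66A2 in A30 was then at −0.06, below the wild-type mean. With 3 arrays per line, single arrays were not tested as outliers.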

How the results depend on the processing

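Single genes were tried where the main fit called them, and for the 4 with an unadjusted p under 0.05 between the genotypes. A gained call could therefore show only between the genotypes. Over these, 1189 values under an alternative kept their direction and side of the threshold, 166 lost the call, 6 gained it and 2 reversed. Of counts, 235 stayed within 1.5 times and 44 did not. The 2 reversals came with neighbour centring, SLC66A2 in A30 (−0.06) and SLC25A15 in B21 (0.04). The number of members called under the settings that moved it was as follows, without the share of all genes called under each setting. With no level filter it was 0 in N4, 2 among knockout lines and 4 among wild-type lines, and with quantile normalisation 2 among knockout lines. At an adjusted p under 0.10 it was 2 in N4. With a 1.5-fold minimum it was 2 in A10, 3 in A30, 0 in B21, N4 and N8, 1 among knockout lines, 0 among wild-type lines and 0 in replicate 1. With neighbour centring it was 0 in N4, 3 in N8 and 2 among wild-type lines. With the replicate 1 difference as a term it was 2 in N4 and 7 among knockout lines.

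Between the genotypes, limma called 1 member with the line as a random block (SLC33A2, adjusted p = 0.00675) and 3 with the line ignored. The replicate number as a block ended or reversed no call of a member in a single-line comparison, but it added calls in A30, B21 and N8. It gave 4 members in A10, 10 in A30, 8 in B21, 1 in N4, 8 in N8, 7 among knockout lines and 12 among wild-type lines. Replicate block and random line together gave 2 between the genotypes, SLC33A2 and SLC25A15. Shares of all genes called under these models are not given here, so the counts cannot be told from a wider rise in calls.

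Leaving out each array in turn, the counts ran from 0 to 0 between genotypes, 2 to 4 in A10, 4 to 8 in A30, 4 to 9 in B21, 0 to 2 in N4, 3 to 6 in N8, 2 to 6 among knockout lines, 4 to 10 among wild-type lines and 3 to 5 in replicate 1. The causes of these changes were not tested. Each genotype rests on 3 clones or lines, the labels state no probe positions, and values near 5.6 lie close to the array medians.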
